A study of Mus musculus with 17 samples.

Results

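The activin system of the mouse hippocampus was described through 9 genes: the activin subunits Inhba and Inhbb, the activin-binding protein follistatin (Fst) and its relative Fstl1, the type I receptors Acvr1, Acvr1b and Acvr1c, and the type II receptors Acvr2a and Acvr2b. They were chosen by symbol, with earlier results of these data known, and all 9 were found among the 55471 genes of the count table. The study asked how loss of CBP, the lysine acetyltransferase encoded by Crebbp, in adult excitatory neurons changes the transcriptional response to seizures. Total hippocampal RNA was sequenced from C57BL/6 mice aged 3 to 6 months, 1 mouse per library. CBP-ifKO mice carried floxed Crebbp together with Camk2a-creERT2, a Cre recombinase that tamoxifen switches on where the Camk2a promoter is active, which leaves a truncated CBP in excitatory forebrain neurons, whereas CBP in glia, vessels and interneurons of the same tissue is left intact. Controls were littermates without this recombination, and mice of both genotypes received tamoxifen. Sal mice were never kindled and were given saline (3 Control and 3 CBP-ifKO libraries). PTZ0 mice went through the kindling protocol, a course of repeated doses of the convulsant pentylenetetrazole (PTZ), and were given saline on the last day (3 and 3 libraries). PTZ45 mice went through the same protocol and were given 45 mg/kg PTZ on the last day (2 Control and 3 CBP-ifKO libraries). According to the paper, the injection on the last day came a week after kindling. Tissue was taken 45 min after it. Kindled here means that the doses were given: it does not say that a mouse became sensitized, seizure scores were not analysed here, and the PTZ0 and PTZ45 groups of CBP-ifKOs are not to be read as sensitized like those of Controls.

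Activins are secreted dimers of inhibin beta subunits, and belong to the TGF-beta family. They bind a type II receptor (Acvr2a or Acvr2b), which recruits and phosphorylates a type I receptor (Acvr1b, also called ALK4, or Acvr1c, also called ALK7), and the type I receptor then phosphorylates SMAD2 and SMAD3. Acvr1 (ALK2) pairs with the same type II receptors but mainly serves bone morphogenetic proteins and SMAD1 and SMAD5. Follistatin wraps around activin and keeps it from its receptors. In the hippocampus, activin A, the dimer of Inhba subunits, is known as a factor that neurons make after strong synaptic activity and that acts on spines, NMDA receptors and survival.

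The libraries held between 5831992 and 18735643 counts. Crebbp had 1824 to 2429 normalised counts (counts divided by the size factor of the library) in Controls and 1061 to 1337 in CBP-ifKOs. The oestrogen receptor gene Esr1, a part of which lies in the creERT2 transgene, had 41.0 to 77.8 normalised counts in Controls and 703 to 941 in CBP-ifKOs. The seizure-induced gene Fos had 2915 and 2483 normalised counts in the Control PTZ45 libraries against 28.1, 28.3 and 62.4 in Control Sal. In CBP-ifKOs Fos had 163, 250 and 288 in PTZ45 against 26.9, 33.2 and 34.0 in Sal. Each group was sequenced in a single lane: Control Sal and Control PTZ0 in lane 3, Control PTZ45 and CBP-ifKO Sal in lane 4, and CBP-ifKO PTZ0 and CBP-ifKO PTZ45 in lane 5. Among the cell type markers examined, those of the choroid plexus summed to 10745 to 44033 normalised counts in 5 libraries, 1 in every group but Control PTZ45, and to 435 to 1136 in the other 12. Markers of excitatory neurons, astrocytes and oligodendrocytes were abundant in all libraries.

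Per kilobase of exonic length, the receptors Acvr1b and Acvr2a were the most abundant of the 9 genes and Fst was the least abundant. The mean over the 8 Control libraries, in normalised counts per kilobase, was 288 ± 16.7 (SD) for Acvr1b and 245 ± 14.5 for Acvr2a, and the highest Acvr2a library reached the lowest Acvr1b library at 260. Fstl1 followed with 130 ± 15.0, above every library of the genes after it. Acvr1 (82.6 ± 7.79) and Acvr1c (77.2 ± 7.62) did not differ beyond their spread in Controls. The ligand genes Inhbb (20.9 ± 1.85) and Inhba (20.3 ± 2.81) were level with each other, Acvr2b (15.4 ± 1.33) lay just below them, and Fst had 3.75 ± 1.15. In CBP-ifKOs (n = 9) the corresponding means were 67.6 ± 5.52 for Acvr1 and 46.9 ± 5.36 for Acvr1c, so that these receptors no longer had the same level, and 20.4 ± 2.10 for Acvr2b, which was then level with Inhba at 18.3 ± 2.64.

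**Figure D1:**
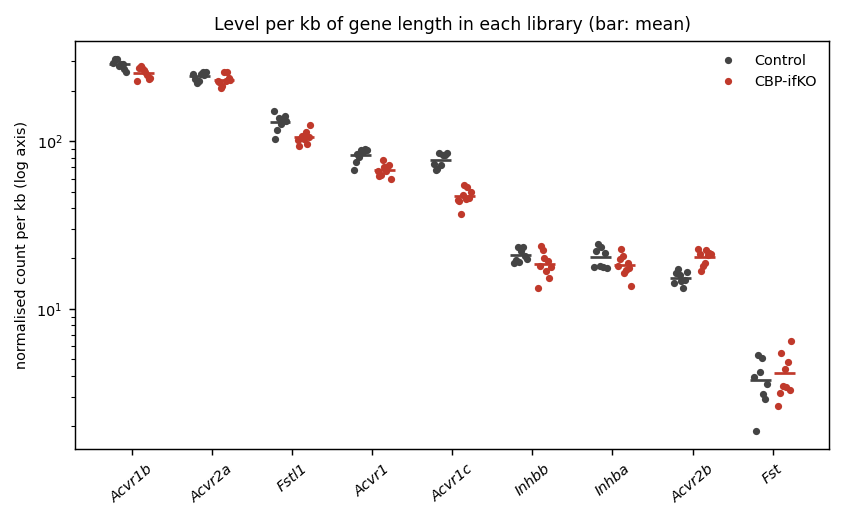
Normalised counts per kilobase of exonic length on a log axis for the 9 genes, ordered by their Control mean, with 1 point per library (8 Control, grey; 9 CBP-ifKO, red) and a bar at the mean. Acvr1b (288) and Acvr2a (245) are at the top, Fst (3.75) is at the bottom, and the genotypes stand clear of each other for Acvr1c.

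The genes lie on 6 chromosomes of the GRCm38 genome: Inhbb on chromosome 1 (119415465 to 119422248, minus strand), Acvr2a (48814109 to 48903269, plus strand), Acvr1c (58267453 to 58357895, minus strand) and Acvr1 (58388644 to 58567157, minus strand) on chromosome 2, Acvr2b on chromosome 9 (119402118 to 119434995, plus strand), Inhba (16011851 to 16031621, plus strand) and Fst (114452290 to 114458951, minus strand) on chromosome 13, Acvr1b on chromosome 15 (101174067 to 101213684, plus strand) and Fstl1 on chromosome 16 (37776873 to 37836514, plus strand). Acvr1c and Acvr1 are neighbours on the same strand. Exons of Acvr2a share 446 bases with Orc4 on the other strand, and the sources used here do not say whether counting used strand, so the Acvr2a value is uncertain to that extent. Orc4 itself had 848 to 1093 normalised counts. Exons of Acvr1c share 168 bases with the antisense transcript Gm13544, which had at most 7.1 normalised counts in any library, and exons of Fst share 115 bases with Gm47040, which had at most 1.0.

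Promoters are shown for the receptor gene that differed most without CBP (Acvr1c), the receptor gene that was higher (Acvr2b) and the ligand gene known to respond to activity (Inhba). Sequence came from RefSeq (GRCm38.p6), which gave a window before the start for 8 of the 9 genes, Fst being the exception. Only bases before both the RefSeq and the GENCODE start are printed, from 5′ to 3′ on the strand of the gene, and capitals mark GC boxes (GGGCGG, either strand), the motif of the Sp1 family.
Acvr1c, chr2:58357896-58358008, minus strand: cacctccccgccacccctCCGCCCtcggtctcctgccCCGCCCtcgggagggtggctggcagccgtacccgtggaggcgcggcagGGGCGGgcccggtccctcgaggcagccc
Acvr2b, chr9:119401928-119402117, plus strand: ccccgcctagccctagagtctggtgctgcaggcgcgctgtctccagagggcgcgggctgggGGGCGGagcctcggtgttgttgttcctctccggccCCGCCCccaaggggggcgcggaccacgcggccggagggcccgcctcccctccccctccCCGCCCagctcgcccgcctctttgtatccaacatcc
Inhba, chr13:16011601-16011850, plus strand: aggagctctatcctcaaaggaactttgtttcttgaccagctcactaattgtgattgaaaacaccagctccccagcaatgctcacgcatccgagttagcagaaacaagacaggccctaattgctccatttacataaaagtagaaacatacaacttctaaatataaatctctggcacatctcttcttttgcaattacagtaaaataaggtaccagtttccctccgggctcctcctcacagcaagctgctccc

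The Acvr1c and Acvr2b stretches hold 3 GC boxes each and the Inhba stretch holds none. Over the whole 250 bases before the RefSeq start, 7 of the 8 genes had at least 1 GC box, Inhba being the exception, against 32.7% of all 32851 windows of this length. G and C made up 43.2% of the Inhba window, 72.8% of the Acvr2b window and 79.6% of the Acvr1c window, with a median of 52.4% over all windows. RefSeq gives Acvr1c a further start inside the gene, whose window (49.6% G and C) had no GC box. The cAMP response element TGACGTCA, to which CREB binds, was in none of the 9 windows of the 8 genes and in 1.5% of all windows. Its first 5 letters alone, TGACG, which the full element contains, were also in none, against 17.8% of all windows, and so was the AP-1 motif TGACTCA, against 4.5%. All motifs were searched on both strands, and a missing match says only that these letters are not in these windows.

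Some of the 9 genes were called with loss of CBP. Acvr1c had about 60% of its Control level in CBP-ifKOs in each of the 3 treatments, and no CBP-ifKO library reached any Control library. With treatment as a term over all 17 libraries, Acvr1c, Fstl1, Acvr1 and Acvr1b were lower and Acvr2b was higher in CBP-ifKOs, whereas the ligand genes Inhba and Inhbb, Fst and Acvr2a were not called. With lane as a further term Acvr1c alone was called. Without that term, 5 of 9 genes were called at an adjusted p under 0.05, against 19.3% of the 18682 genes tested. By direction, 4 of 9 were lower against 11.5% of all genes, and 1 of 9 was higher against 7.76%. The median log2 fold change was -0.16 over the 9 genes and 0.01 over all genes tested. The genes were chosen with earlier results of these data known, so these shares and medians are a description only.

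**Figure D2:**
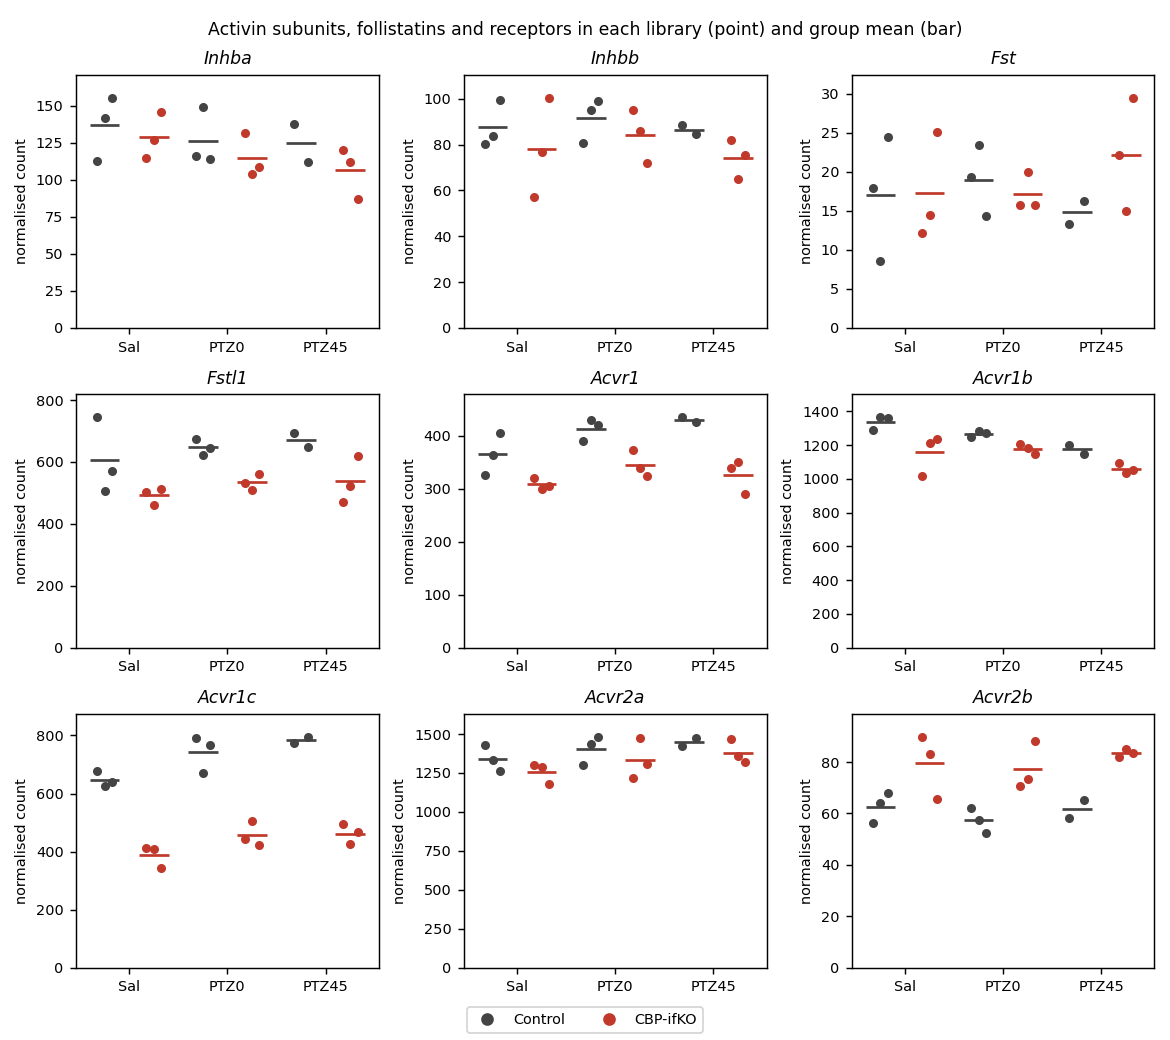
Normalised counts of the 9 genes in every library (points) by treatment and genotype, with a bar at each group mean and every axis starting at 0. Acvr1c in CBP-ifKO libraries (342 to 507) lies below all Control libraries (627 to 794), Acvr2b lies mostly higher in CBP-ifKOs, and Inhba does not rise in the PTZ45 groups.

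Among the ligand genes, Inhba had 113, 142 and 155.5 normalised counts in Control Sal and 115, 127 and 146 in CBP-ifKO Sal. Over all treatments Inhba ran from 112 to 155.5 in Controls (median 127) and from 87.2 to 146 in CBP-ifKOs (median 115), and the genotypes overlapped. The log2 fold change of CBP-ifKO against Control was -0.14 (SE 0.10, 95% interval -0.34 to 0.05, adjusted p = 0.358). Inhbb, whose dimer is activin B, ran from 80.3 to 99.4 normalised counts in Controls and from 57.0 to 100.5 in CBP-ifKOs, which again overlapped. The difference was -0.17 on the log2 scale (SE 0.12, 95% interval -0.40 to 0.06, adjusted p = 0.334). With lane as a further term the intervals widened to -0.82 to 0.48 for Inhba and -1.03 to 0.49 for Inhbb.

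Of the binding proteins, Fst was too low for a precise value. It had 8.6 to 24.4 normalised counts in Controls and 12.2 to 29.5 in CBP-ifKOs, and its log2 fold change of 0.12 had a 95% interval from -0.35 to 0.59 (adjusted p = 0.789). Within single treatments Fst had no adjusted p, because its counts lay under the threshold of the DESeq2 filter on low means.

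Fstl1, which encodes a secreted glycoprotein with a follistatin domain, was lower in CBP-ifKOs. Normalised counts of Fstl1 in Control libraries were 744, 506 and 570.5 in Sal, 675.0, 623 and 646.5 in PTZ0, and 693 and 647.5 in PTZ45. The CBP-ifKO libraries had 503, 461 and 512 in Sal, 532, 511 and 561 in PTZ0, and 471, 524 and 619 in PTZ45. The genotypes were apart in PTZ0 and in PTZ45 but overlapped in Sal, where 1 Control library (506) lay inside the CBP-ifKO range. Over all treatments the level in CBP-ifKOs was 81.7% ± 7.42 (SD, n = 9) of the Control mean, a difference of -0.30 on the log2 scale (SE 0.07, adjusted p = 0.000188). Fibroblast and mural cells also express Fstl1. Their 5 markers summed to 1104 to 1592 normalised counts in Controls and 634 to 1426 in CBP-ifKOs, and 1 of them (Dcn) was called lower. Astrocyte markers summed to 11800 to 13205 in Controls and 10487 to 12900 in CBP-ifKOs, with 1 of 4 (Slc1a3) called lower. The fit over all treatments called 11.5% of all genes lower. The part of these markers in the Fstl1 result was not tested.

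The largest difference among the 9 genes was that of the type I receptor Acvr1c. In Control libraries Acvr1c had 677, 627 and 638 normalised counts in Sal, 791, 670.0 and 765.5 in PTZ0, and 773 and 794 in PTZ45. In CBP-ifKO libraries it had 413, 409 and 342 in Sal, 444, 507 and 423 in PTZ0, and 495, 425 and 466 in PTZ45. The highest CBP-ifKO library (507) lay below the lowest Control library (627), which 2.16% of the genes tested also showed in this direction. Genotype shifted Acvr1c by -0.75 on the log2 scale (SE 0.12, adjusted p = 7.68e-08) in Sal, -0.70 (SE 0.10, adjusted p = 3.58e-09) in PTZ0 and -0.76 (SE 0.12, adjusted p = 1.8e-07) in PTZ45, and -0.74 (SE 0.06, adjusted p = 1.41e-37) over all treatments. These correspond to 59.9% ± 6.15 (SD, n = 3), 61.7% ± 5.90 and 59.0% ± 4.51 of the Control mean. Acvr1c was the only one of the 9 genes called within Sal, where 2.04% of all genes were called, and within PTZ45, where 3.07% were. In PTZ0, where 6.68% of all genes were called, Fstl1 was called beside it (log2 fold change -0.28, SE 0.09, adjusted p = 0.0421), but 11 of the 13 alternative settings did not call Fstl1 there. Across these settings the Fstl1 log2 fold change lay between -0.34 and -0.25.

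Some markers of hippocampal subfields and of other cell types or regions were also called over all treatments. This fit had no lane term, although genotype and lane were largely confounded. It called 11.5% of all genes lower and 7.76% higher. No marker of oligodendrocytes, microglia, endothelial cells or choroid plexus was called. The 3 CA1 markers summed to 2103 to 2722 normalised counts in Controls and to 1456 to 1963 in CBP-ifKOs, with no overlap, and all 3 were called lower (Wfs1 by -1.11, Fibcd1 by -0.44 and Pou3f1 by -0.29 on the log2 scale). The 3 CA3 markers summed to 1697 to 2051 and 1216 to 1728, with 1 called lower (Cpne4). Of the 4 dentate granule cell markers, 2 were called higher (Prox1 and Lct) and 1 lower (C1ql2), with sums of 2459 to 3606 and 2821 to 3856. The 4 general markers of excitatory neurons summed to 28006 to 36425 in Controls and 31062 to 40562 in CBP-ifKOs, with 1 called lower (Nrgn). The 4 markers of tissue outside the hippocampus summed to 199 to 263 (median 229) in Controls and 111 to 208 (median 162) in CBP-ifKOs, with 2 called lower (Drd1 by -0.74 and Cbln1 by -1.09). The 5 interneuron markers summed to 6240 to 6538 (median 6382) and 5549 to 6293 (median 5930), with 2 called lower (Gad1 by -0.14 and Sst by -0.28). In whole tissue, fewer cells of a type and less RNA per cell cannot be told apart. The part of these markers in the Acvr1c result was not tested.

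Acvr1 ran from 326.5 to 434 normalised counts in Controls (median 411.5) and from 289 to 373 in CBP-ifKOs (median 323). In each treatment the CBP-ifKO libraries lay below the Control libraries for Acvr1 and also for Acvr1b. The share of all genes that separate in this way within a treatment is not given here. Neither gene passed the test in a single treatment (for Acvr1, adjusted p = 0.538 in Sal, 0.166 in PTZ0 and 0.142 in PTZ45). Over all treatments Acvr1 differed by -0.29 on the log2 scale (SE 0.06, adjusted p = 2.43e-05). Acvr1b, the most abundant of the type I receptors, ran from 1148 to 1364 normalised counts in Controls and from 1017 to 1238.5 in CBP-ifKOs. Its level in CBP-ifKOs was 89.1% ± 6.60 (SD, n = 9) of the Control mean, or -0.16 on the log2 scale (SE 0.04, adjusted p = 0.00194).

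Of the type II receptors, Acvr2b was the only one of the 9 genes called higher in CBP-ifKOs. Acvr2b had 56.1, 64.0 and 67.8 normalised counts in Control Sal, 62.3, 57.4 and 52.4 in Control PTZ0, and 58.4 and 65.2 in Control PTZ45. The CBP-ifKO libraries had 89.7, 83.0 and 65.8 in Sal, 70.6, 73.5 and 88.3 in PTZ0, and 82.0, 85.0 and 83.7 in PTZ45. A single CBP-ifKO Sal library (65.8) lay within the Control range. Acvr2b in CBP-ifKOs was at 132.6% ± 13.7 (SD, n = 9) of the Control mean, or 0.41 on the log2 scale (SE 0.11, adjusted p = 0.00274), and it was called in no single treatment (adjusted p = 0.737 in Sal, 0.336 in PTZ0 and 0.641 in PTZ45). The far more abundant Acvr2a ran from 1261 to 1479.7 in Controls and from 1181 to 1475 in CBP-ifKOs, a log2 difference of -0.08 (SE 0.05, 95% interval -0.17 to 0.01, adjusted p = 0.222).

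**Figure D3:**
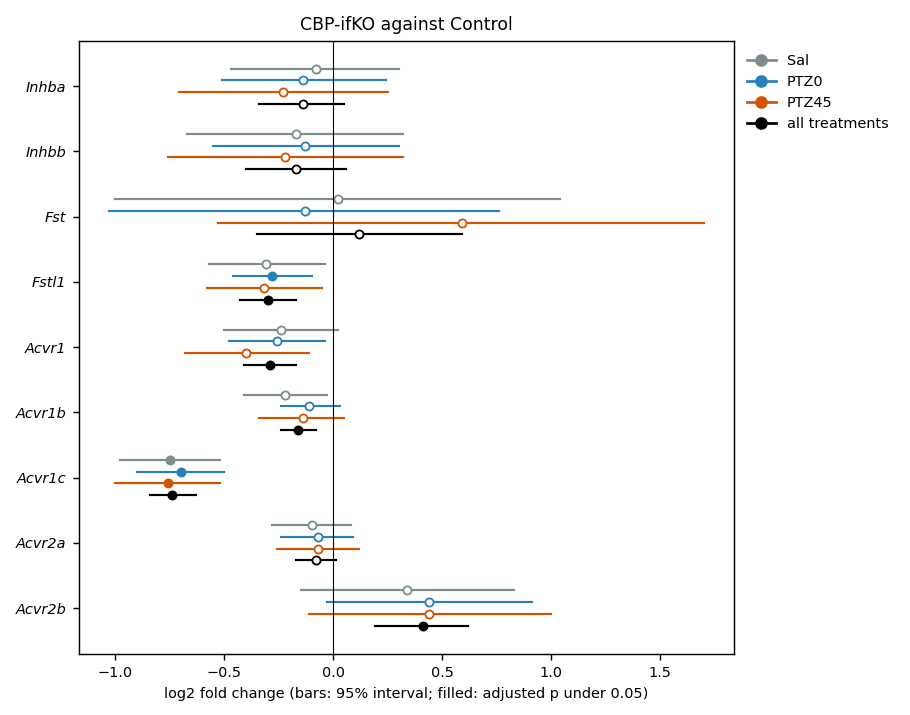
Log2 fold changes of CBP-ifKO against Control for the 9 genes within Sal, PTZ0 and PTZ45 and over all treatments, with 95% intervals as bars and filled points where the adjusted p was under 0.05. Acvr1c is filled in all 4 comparisons (-0.70 to -0.76), Fstl1 is filled in PTZ0 and over all treatments, and Acvr1, Acvr1b and Acvr2b are filled over all treatments.

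Because each group sat in a single lane, genotype and lane were largely confounded. With lane as a further term, which assumes that both genotypes respond alike to treatment, Acvr1c was still called (log2 fold change -0.81, SE 0.18, adjusted p = 0.00175). Fstl1 (-0.34), Acvr1 (-0.37), Acvr1b (-0.26) and Acvr2b (0.34) kept their direction but were not called, with adjusted p from 0.773 to 0.999. This term left 0.863% of all genes called, 132 lower and 3 higher. Lane 4 alone holds both genotypes, as CBP-ifKO Sal against Control PTZ45, so that treatment differs with genotype. In this setting, chosen after seeing the data, 3.41% of all genes were called, among them Acvr1c (-1.02), Acvr1 (-0.48) and Fstl1 (-0.44), whereas Acvr2b (0.36, adjusted p = 0.723) and Acvr1b (-0.03, adjusted p = 0.97) were not. Without the 5 libraries high in choroid plexus markers, also chosen after seeing the data, 11.8% of all genes were called. Acvr1c (-0.75), Fstl1 (-0.36) and Acvr1 (-0.30) were called, whereas Acvr1b (-0.11, adjusted p = 0.125) and Acvr2b (0.33, adjusted p = 0.134) were not.

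The PTZ injection was the second question put to these genes. None of the 9 was called in PTZ45 against Sal or PTZ0 in either genotype, including Inhba, at 45 min after an injection that raised Fos. Fos rose 67.8-fold over Sal in Controls but 7.52-fold in CBP-ifKOs, so the CBP-ifKO comparisons describe mice with a weaker Fos response. In Controls, PTZ45 against Sal called 1.17% of all genes and PTZ45 against PTZ0 called 1.25%, and in CBP-ifKOs the shares were 0.294% and 0.0872%. At an unadjusted p under 0.05, the DESeq2 test found 2, 0, 1 and 0 of the 9 genes in these 4 comparisons, where it found 7.66%, 8.3%, 4.33% and 2.12% of all genes. The edgeR test found 3, 0, 1 and 1 of the 9, where it found 13.6%, 15.9%, 7.08% and 5.41% of all genes, and called none of the 9 after adjustment.

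Inhba had 138 and 112 normalised counts in Control PTZ45, inside the range of Control Sal (113 to 155.5) but for the lower library. The log2 fold change of Inhba was -0.12 (95% interval -0.56 to 0.31) against Sal and -0.01 (-0.44 to 0.42) against PTZ0. In CBP-ifKO PTZ45 Inhba had 119.9, 112 and 87.2, with log2 fold changes of -0.28 (-0.69 to 0.13) against Sal and -0.10 (-0.51 to 0.31) against PTZ0. None of these intervals reached above 0.42 on the log2 scale. Inhbb lay between -0.18 and -0.02 in the 4 comparisons, with intervals from -0.64 at the lowest to 0.47 at the highest. For Fst the intervals were wide: -1.39 to 0.93 against Sal and -1.45 to 0.73 against PTZ0 in Controls, and -0.64 to 1.30 and -0.55 to 1.26 in CBP-ifKOs.

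**Figure D4:**
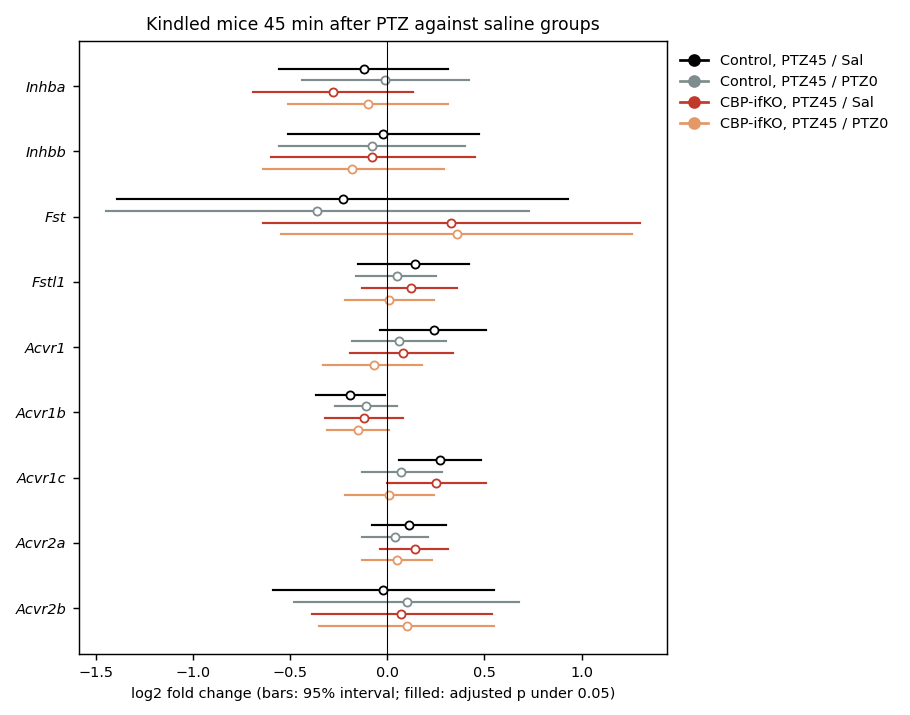
Log2 fold changes of the 9 genes 45 min after PTZ against unkindled (Sal) and kindled (PTZ0) mice given saline, in both genotypes, with 95% intervals as bars. No point is filled, that is, no adjusted p was under 0.05, and the widest intervals are those of Fst.

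The type I receptors Acvr1c and Acvr1b came closest to the threshold, in Control PTZ45 against Control Sal. This did not hold for all receptors, as Acvr2b had an adjusted p of 0.997 in the same comparison. Acvr1c was at 773 and 794 normalised counts in Control PTZ45, above all Control Sal libraries (627 to 677), a log2 fold change of 0.27 (95% interval 0.06 to 0.48, adjusted p = 0.383). In CBP-ifKOs, PTZ45 libraries (425 to 495) also lay above Sal libraries (342 to 413), with a log2 fold change of 0.25 (95% interval 0.00 to 0.51, adjusted p = 1). Against PTZ0 the Acvr1c log2 fold changes were 0.07 (-0.13 to 0.28) in Controls and 0.01 (-0.22 to 0.24) in CBP-ifKOs, and the libraries overlapped. Acvr1b had 1200.1 and 1148 normalised counts in Control PTZ45, below the Control Sal libraries (1289 to 1364), with a log2 fold change of -0.19 (95% interval -0.37 to -0.01, adjusted p = 0.623). They also lay below the Control PTZ0 libraries (1246.5 to 1282.5), with a log2 fold change of -0.11 (-0.27 to 0.05, adjusted p = 0.82). In CBP-ifKOs, Acvr1b in PTZ45 (1037 to 1092) lay below PTZ0 (1146 to 1204), 2 groups of the same lane, by -0.15 on the log2 scale (-0.31 to 0.01, adjusted p = 1), and overlapped with Sal (1017 to 1238.5), with a log2 fold change of -0.12 (-0.32 to 0.08, adjusted p = 1). PTZ45 libraries also lay above all Sal libraries for Acvr1 in Controls (log2 fold change 0.24) and for Acvr2a in CBP-ifKOs (0.14). The share of all genes that separate in this way is not given here. Control PTZ45 was sequenced in another lane than Control Sal and Control PTZ0, and the Sal and PTZ45 groups of CBP-ifKOs were also in different lanes.

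The kindling protocol alone, measured a week later as PTZ0 against Sal, called 0.00843% of all genes in Controls and 0.0112% in CBP-ifKOs. None of the 9 was called. The DESeq2 test gave 1 of 9 (Acvr1c) an unadjusted p under 0.05 in Controls (0.581% of all genes) and 0 of 9 in CBP-ifKOs (0.336%), and the edgeR test 1 and 1 (3.58% and 1.6% of all genes), with none of the 9 called after adjustment. Acvr1c had 670.0 to 791 normalised counts in Control PTZ0 against 627 to 677 in Control Sal, 2 groups of the same lane that overlapped, with a log2 fold change of 0.20 (95% interval 0.02 to 0.37, adjusted p = 1). In CBP-ifKOs it had 423 to 507 against 342 to 413, which did not overlap, with 0.24 (-0.01 to 0.50, adjusted p = 1), but these groups were sequenced in different lanes (5 and 4), so that treatment and lane cannot be told apart. Both kindled groups of a genotype were compared with the same Sal libraries, so the higher Acvr1c values of PTZ0 and of PTZ45 are not independent of each other. The largest change of any of the 9 genes in these comparisons was 0.20 in Controls and 0.24 in CBP-ifKOs on the log2 scale.

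Whether the genotypes responded differently was tested by interaction. No gene of the 9 was called in the genotype by PTZ45 interaction over Sal (0.329% of all genes called) or over PTZ0 (0.423%), or in the genotype by PTZ0 interaction over Sal, added after seeing the data, in which no gene of the genome was called. None had an unadjusted p under 0.05 in DESeq2, where 1.76%, 2.81% and 0.37% of all genes did, or in edgeR, where 3.82%, 5.24% and 1.9% did. For Acvr1c the interaction was -0.02 (95% interval -0.32 to 0.29) over Sal and -0.06 (-0.36 to 0.23) over PTZ0. For Inhba it was -0.16 (-0.72 to 0.41) and -0.09 (-0.65 to 0.46). The genotype difference of Acvr1c was thus of similar size in all 3 treatments within these limits, and equality was not shown.

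Beyond the 9 genes, 31 further genes of activin and TGF-beta family signalling were counted, in 3 classes. None was called in any PTZ or kindling comparison or interaction. In CBP-ifKOs against Controls over all treatments, 7 of 31 were lower and 0 higher, against 11.5% and 7.76% of all genes, and 8 had an unadjusted p under 0.05 in DESeq2, against 29.9%. Of the 31, 8 had no adjusted p because their counts were low. Of the 12 ligands, binding proteins and coreceptors, Fstl5 (-0.19, adjusted p = 0.00412) and the pseudoreceptor Bambi (-0.29, adjusted p = 0.0348) were lower. Of the 6 other receptors, the type I receptors Tgfbr1 (-0.21, adjusted p = 0.000134) and Bmpr1b (-0.17, adjusted p = 0.0435) were lower. Of the 13 transducers and regulators, Smad3, which carries the signal of activin receptors into the nucleus, Smad7, an inhibitor that blocks the type I receptor, and Skil, a corepressor of SMAD proteins, were lower. Smad2 and Smad4 were not called.

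**Figure D5:**
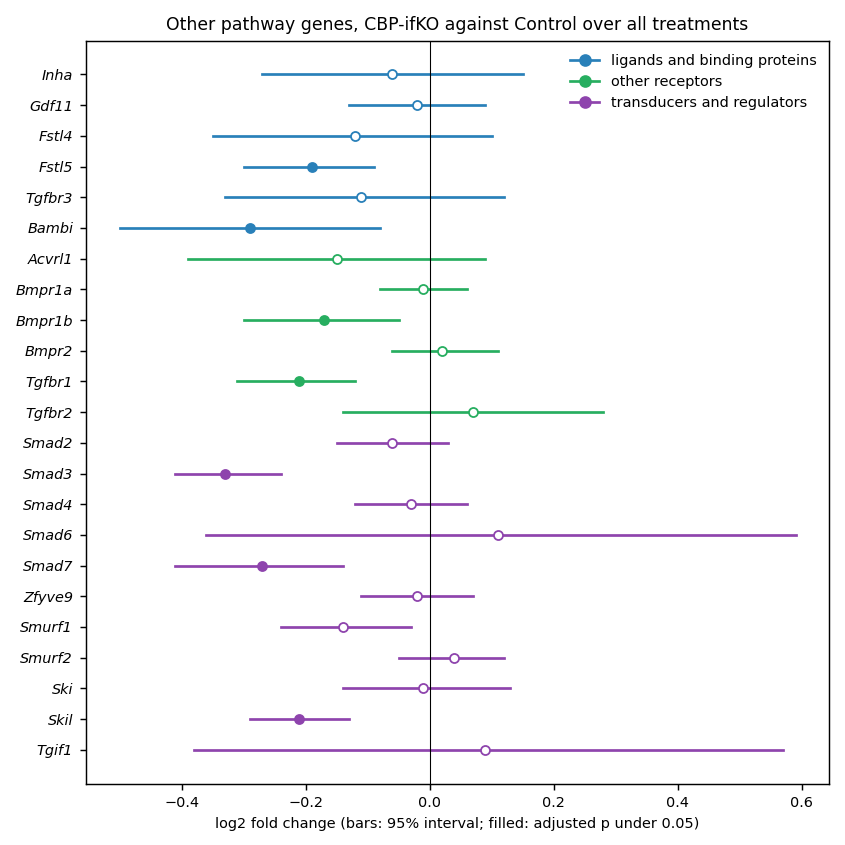
Log2 fold changes of CBP-ifKO against Control over all treatments for the 23 further pathway genes with a mean of at least 10 normalised counts, with 95% intervals as bars, colours for the 3 classes and filled points where the adjusted p was under 0.05. The 7 filled points all lie below 0, from -0.17 (Bmpr1b) to -0.33 (Smad3).

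Smad3 ran from 906 to 1081 normalised counts in Controls and from 763 to 913 in CBP-ifKOs, with 1 CBP-ifKO library inside the Control range. The log2 difference was -0.33 (SE 0.04, adjusted p = 7.52e-12) over all treatments, and it was the only one of the 31 called within a single treatment, at -0.38 (SE 0.08, adjusted p = 5.43e-05) in PTZ0 and -0.36 (SE 0.11, adjusted p = 0.0261) in PTZ45. Smad7 changed by -0.27 (SE 0.07, adjusted p = 0.000906) and Skil by -0.21 (SE 0.04, adjusted p = 5.57e-06). With lane as a further term none of the 7 was called. All 7 kept their direction, with log2 fold changes from -0.22 (Smad3, SE 0.14) to -0.77 (Bambi, SE 0.33). In lane 4 alone Skil (-0.40), Tgfbr1 (-0.46) and Fstl5 (-0.42) were called, whereas Smad3 (-0.36, adjusted p = 0.0713), Smad7 (-0.36, adjusted p = 0.391), Bambi (-0.74, adjusted p = 0.0996) and Bmpr1b (-0.26, adjusted p = 0.505) were not. Without the libraries high in choroid plexus markers Smad3 (-0.32), Tgfbr1 (-0.21) and Skil (-0.17) were called, whereas Smad7 (-0.26, adjusted p = 0.0521), Fstl5 (-0.18, adjusted p = 0.0879), Bambi (-0.32, adjusted p = 0.114) and Bmpr1b (-0.11, adjusted p = 0.339) were not. Bambi and Bmpr1b lost the call in most alternatives, 14 and 17 of 26. The Smad3 call in PTZ45 was lost in 8 of 13, among them the replicate block and leaving out any 1 library (highest adjusted p = 1), and that in PTZ0 in 1 of 13, without the libraries high in choroid plexus markers (adjusted p = 0.172).

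Genes that followed Inhba, Inhbb, Fst and Acvr1c most closely were sought by the correlation of log2 values across the 17 libraries, given as a description because the libraries share genotype, lane and scaling. Inhba was closest to Gm43951 (Pearson's r = 0.829), Adcy1 (0.817), Ryr1 (0.810), Inpp5j (0.801) and Mrtfa (0.797) among 13040 genes. Inhbb was closest to Zdhhc2 (0.844), Creg2 (0.838), Kif3c (0.827), Hey1 (0.823) and Spon1 (0.822). Fst, with its low counts, was closest to Tbc1d7 (0.858), Tsnax (0.821), Coq10a (0.814), Med21 (0.806) and Exosc9 (0.771). For Acvr1c, added after its values were seen, the closest were Psd3 (0.982), Mctp1 (0.974), Trpc6 (0.961), Pgm2l1 (0.958) and Camk4 (0.956).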

How the data were processed

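The authors trimmed single-end reads of 50 bases with Trim Galore 0.6.4, aligned them with STAR 2.6.1 to GRCm38, kept those with a mapping quality over 10 and deposited raw counts per gene, not normalized. Of 18 count columns, 1, named like those of Control PTZ45 (2 libraries used), fitted no sample in the labels and was left out. Symbols and positions came from GENCODE M21, which held 99.6% of the gene identifiers. DESeq2 1.42.0 in R 4.3.3 was run on all genes with a count (two-sided Wald test, Benjamini-Hochberg adjustment, called at 0.05), for pairs of groups alone and for genotype over all 17 libraries with treatment as a term. Alternatives were edgeR 4.0.16 (quasi-likelihood test), TMM size factors, a filter of 10 counts in 2 libraries, 1 fit of all libraries, a replicate block, a GC correction, a lane term and leaving out each library. Scripts were tested on simulated data. Replicate pairs differed beyond sampling noise (chi-square per degree of freedom 2.55 to 21.3). By rule, the genes named are the 9 members, called pathway genes, the 5 genes most correlated with Inhba, Inhbb or Fst, and label checks. The genes most correlated with Acvr1c, called cell type markers, genes that overlap a member, Smad2 and Smad4 were named after their values were seen. Members and lists were chosen with earlier results of these data known. Libraries are single mice per the study's methods, and intervals are 95% Wald intervals.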

Additional observations from a re-analysis of the deposited data

How the results depend on the processing

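No gene of the 9 was called in a PTZ or kindling comparison under any of 702 alternative values, or in an interaction under any of 513. Some of the 702 had no adjusted p and could not be called. For Fst in CBP-ifKO PTZ45 against CBP-ifKO Sal, 7 of 13 alternatives had an adjusted p. Acvr1c kept its genotype call under every alternative run, with log2 fold changes from -1.02 to -0.64. The weakest of these calls, in PTZ45, lay just under the threshold of 0.05. In PTZ0, the genotype comparison called 2 genes in the main analysis and 1 (Acvr1c) with TMM size factors, the filter on low counts, 1 fit of all libraries, the replicate block, without the libraries high in choroid plexus markers, and without each replicate in turn (1 to 1). In PTZ45 it called 1, and 2 with 1 fit of all libraries, which added Acvr1 (-0.40, adjusted p = 0.0257). Over all treatments it called 5, but 1 with lane as a further term (0.863% of all genes), 3 in lane 4 alone (3.41%; added after seeing the data) and 3 without the libraries high in choroid plexus markers (11.8%). The GC correction added Acvr2a (-0.11, adjusted p = 0.0282). The cause of these shifts was not tested. No called value changed sign, and 51 of 108 values that were not called did under at least 1 alternative. Replicate numbers were not taken to pair the libraries: same-numbered deviations correlated between -0.52 and 0.53. All were over 0.1 in 3 of 15 pairs of groups: Control PTZ0 with CBP-ifKO PTZ45 (0.15 to 0.53) and CBP-ifKO PTZ0 with Control PTZ45 (0.28 to 0.32), which were not compared directly, and Control PTZ0 with Control PTZ45 (0.11 to 0.17, 2 shared numbers), which were. In 0 of 6 comparisons of 3 against 3 did every library correlate best with its own number. With the replicate block, the calls of the 9 genes over all comparisons went from 9 to 8, the lost one being Fstl1 in PTZ0 (-0.28, adjusted p = 0.198). The Control PTZ45 library titled replicate 2 has the number 3 in its library name. With that number, an alternative added after seeing the data, none of the 5 pairs with Control PTZ45 had all correlations over 0.1 (-0.16 to 0.28), and the replicate block gave 6 calls of the 9 genes over the 6 comparisons with Control PTZ45, as did the main analysis. Fst, with at most 29.5 normalised counts, is limited by depth.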
